A study of Mus musculus with 12 samples.

Results

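These fragments come from the middle of mature nuclear tRNAs. They start at position 31 of the tRNA or later, from the last base before the anticodon loop onward. They stop at least 3 nt before the CCA end, and carry no named tsRNA subtype (subtype Other or tRF-2) in the authors' table. The rule takes a distinct read sequence by its first listed row among mature nuclear tRNAs and uses no read count. It found 8144 of the 87699 distinct sequences, with 30225 of 1705883 reads (1.77%). Fragments of the same subtypes that start at 2 to 30 served for comparison, and numbered 17374 sequences with 91183 reads. They are called fragments that start before the anticodon, although members that start at 31 to 33 do so too. All but 1 of the 8144 sequences were of subtype Other. Just outside and just inside the start threshold, 181 sequences (315 reads) started at position 30 and 335 (811 reads) at position 31.

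The libraries were made from livers of male B6D2F1/Crl mice, wild type (WT) or NSun2-/- (NS-KO), labelled 8 to 12 weeks old, although the protocol gives 9 weeks as the lower age. CCl4, a liver toxin, was given at 40% in corn oil at 2 mL/kg by intraperitoneal injection, once for acute and repeatedly for long-term injury. The groups are D0 (uninjured, no CCl4), D3 (after a single injection) and D27 (repeated injections) of each genotype. Each group has 2 libraries, 12 in all. RNA was treated to remove m1A and m3C marks and to make both fragment ends fit for ligation, and inserts of 14 to 40 nt were sequenced. The labels name PAGE for this size selection and the methods a selection of the amplified library. Libraries held 46937 to 275568 tRNA reads and 1281 to 3973 reads of the fragments described here. tRNA reads cannot check the deletion or the cell types of the liver, and fewer cells of a type cannot be told apart from less RNA per cell. One library stood apart: in WT D3 replicate 1, 35.6% of reads were tRF-5c, the long fragments from the 5′ end, against 60.9% to 71.5% in the other WT libraries. The share of all tRNA reads and the Met value at D3 are also given without it. Other results are given, if at all, only over all fits that leave out 1 library, and some change.

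A tRNA folds into an acceptor stem, a D arm, an anticodon arm, a variable loop and a T arm. The anticodon lies at positions 34 to 36. The T arm opens at position 49, and its loop starts at position 54 with the T that gives the arm its name, a uridine methylated to m5U by TRMT2A. NSun2 writes m5C at positions 48 to 50, where the variable loop meets the T arm, and on the wobble base of tRNA-Leu-CAA, while DNMT2 writes m5C at position 38 of tRNA-Asp, tRNA-Gly and tRNA-Val. Angiogenin and related ribonucleases are known to cut tRNAs in the anticodon loop, which yields long 5′ and 3′ pieces. A fragment that starts in the anticodon loop and stops inside the T arm lacks both ends of the tRNA.

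Abundant fragments of 5 kinds of tRNA are printed first, to show how starts and ends relate. Each line is a read sequence, 5′ to 3′ and in DNA letters, with positions 49 to 54 in capitals, the 5′ strand of the T stem and the first base of its loop. Numbers after each name are the first and last base in that tRNA.
tRNA-Met-CAT-2-1, 34 to 54: cataatctgaaggtcCTGAGT
tRNA-Met-CAT-2-1, 36 to 54: taatctgaaggtcCTGAGT
tRNA-Met-CAT-2-1, 41 to 54: tgaaggtcCTGAGT
tRNA-Met-CAT-1-1, 34 to 54: cataatctgaaggtcGTGAGT
tRNA-Arg-CCT-1-1, 35 to 54: ctaagccagggattGTGGGT
tRNA-Arg-CCT-1-1, 42 to 55: agggattGTGGGTt
tRNA-Leu-CAA-1-1, 51 to 64: ttggaggcGTGGGT
tRNA-Leu-TAA-2-1, 44 to 64: tggacatatgtctgcGTGGGT
tRNA-Arg-CCG-3-1, 43 to 56: gggattGTGGGTtt
The Leu tRNAs have a long variable arm, so their base 64 is position 54 when counted back from the CCA end. The Leu-CAA read differs from its tRNA at its first base and the Arg-CCG read at its last base. Of the 12 sequences with most reads in the whole set, 10 stop at position 54, and 8 of these 10 are Met fragments. The other 2 are Arg-CCT 42 to 55 and Arg-CCG 43 to 56. Among the 8 Met fragments are versions of 34 to 54 and of 36 to 54 with a C in place of the T at base 54.

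The whole mature tRNAs show where these pieces lie. Capitals mark the fragment (34 to 54, 35 to 54 and 51 to 64), and the last bases are CCA.
tRNA-Met-CAT-2-1: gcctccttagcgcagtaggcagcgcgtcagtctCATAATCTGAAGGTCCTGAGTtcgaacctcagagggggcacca
tRNA-Arg-CCT-1-1: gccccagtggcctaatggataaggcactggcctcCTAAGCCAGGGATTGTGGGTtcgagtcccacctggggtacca
tRNA-Leu-CAA-1-1: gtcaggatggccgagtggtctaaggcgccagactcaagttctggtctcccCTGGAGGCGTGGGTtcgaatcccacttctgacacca
The file places tRNA-Met-CAT-2-1 at chr13:21167604-21167676, tRNA-Arg-CCT-1-1 at chr11:115412981-115413053 and tRNA-Leu-CAA-1-1 at chr13:21172837-21172942. It names no build and no strand, and 204 of its 278 mature nuclear tRNAs have exactly the coordinates of a RefSeq tRNA gene of GRCm38.p6, these included (n-TMcat14, n-TRcct5 and n-TLcaa4). The Met fragment 34 to 54 is listed under 5 identical copies, so its gene of origin is not known. Of all members, 4853 sequences (72.8% of reads) were listed under more than 1 tRNA and 272 (2.08% of reads) under more than 1 amino acid. Under more than 1 isodecoder, here the amino acid with its anticodon, 1385 sequences were listed (17.7% of reads). The printed Leu-CAA read was listed under 3 isodecoders and the Arg-CCG read under 2. Their names give the first listing, and their tRNA of origin is not known.

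The anticodon loop gave most starts. Of the reads, 51.0% started in the anticodon loop, 24.0% in the 3′ strand of the anticodon stem, 18.8% in the variable loop and 5.17% in the T arm. The remaining 1.06% came from tRNAs whose anticodon was not found by the rule. Starts at position 31, just before the loop (2.24% of the reads), were counted with the loop. The 3 anticodon positions alone took 33.1% of the reads, with 13.5% starting at 34, 9.04% at 35 and 10.5% at 36. Position 41, in the 3′ strand of the anticodon stem, followed with 7.31%. Leu fragments differed, since their most frequent start was position 50 counted from the anticodon (17.4% of 5634 reads), inside the long variable arm. Asp, Gly, Ile, Val and His fragments started most often at position 32, 5′ of the anticodon.

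The 3′ ends were far less spread than the starts. Position 54 was the last base of 13573 reads (44.9%) and of 1329 distinct sequences (16.3%). In 2327 of these reads (17.1%) the base at 54 was mismatched. Positions 55 and 56 held 9.50% and 9.65% of reads, so that 64.1% ended at 54 to 56. Only 3.41% of the reads ended at the NSun2 positions 48 to 50. Reads have at least 14 nt, so fragments that start late, such as at 41 in tRNA-Met, cannot end there. The low share is thus partly set by read length. Fragments that start before the anticodon rarely shared this end. Of their reads, 2.19% ended at 54, and 3.90% did among the 51252 reads that started close enough to reach 54 within 40 nt.

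**Figure D1:**
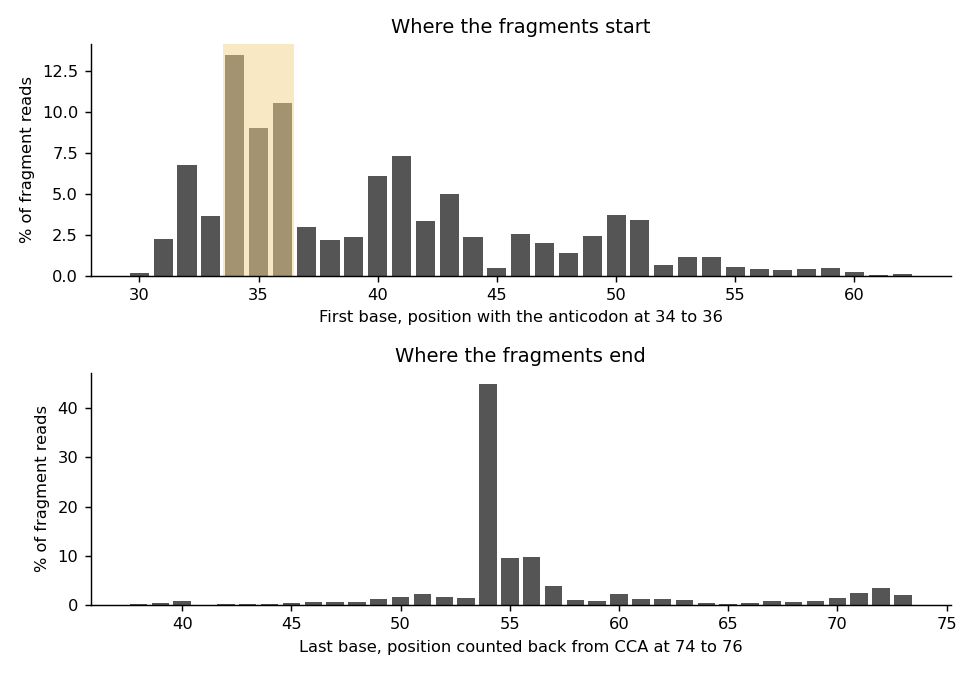
Percent of fragment reads (all 12 libraries pooled) by first base (top, numbered from the anticodon, shaded at 34 to 36) and by last base (bottom, numbered back from the CCA end). Starts spread from 31 to beyond 50, whereas position 54 holds 44.9% of the ends.

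The end at 54 was common to many tRNAs. It was the most frequent last base for 14 of the 21 amino acids (selenocysteine counted as 1). For Met, 79.8% of 8847 reads ended there, for Phe 57.7% of 305, for Val 45.5% of 297, for Ile 43.6% of 754 and for Leu 41.8% of 5634. Leaving Met out, the share over all members was 30.5%. The other 7 ended elsewhere. Glu and His fragments ended most often at 50 and 56. Selenocysteine fragments ended most often at position 40 (55.1% of 343 reads), Asn at 60 (34.2% of 333), Tyr at 67 (28.5% of 522), Trp at 71 (22.8% of 364) and Gln at 72 (11.8% of 808). Position 40 is counted back from the CCA end here and does not lie in the anticodon stem. Of the selenocysteine reads, 316 ran from the anticodon loop into the variable loop. A T stands at position 54 in 232 of the 278 mature nuclear tRNAs (83.5%).

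**Figure D2:**
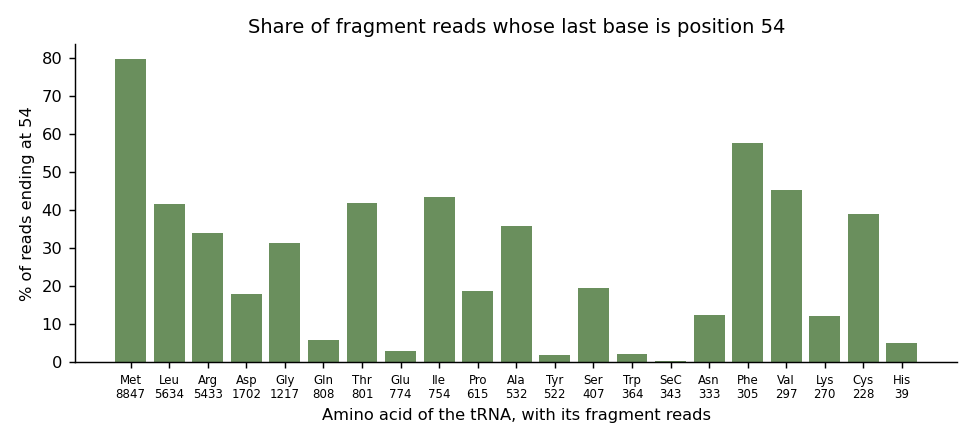
Percent of fragment reads that end at position 54, by the amino acid of the tRNA, with the fragment reads of each under its name (12 libraries pooled). Met stands highest with 79.8%, and Tyr, Trp and selenocysteine lie under 3%.

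Met fragments formed a nested set with 1 end and several starts. The elongator tRNA-Met gave 8522 reads and the initiator tRNA-Met, which starts translation, gave 325. Of the elongator reads, 7018 (82.4%) ended at 54. Among these, 42.4% started at 34, the first base of the anticodon, 25.8% at 36, 10.6% at 40 and 9.53% at 41, and 5.32% at 35 in between. A read from 41 to 54 has 14 nt, the shortest length kept, so later starts could not be seen. Arg-CCT fragments ended at 54 in 1479 of 2683 reads (55.1%), and 76.1% of those started at 35. Leu-CAA fragments ended at 54 in 45.0% of 3256 reads, and 43.8% of those started at 50.

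The base that precedes the start was a pyrimidine for 67.0% of the reads, with C before 36.6% and T before 30.3%. Over all positions of mature nuclear tRNAs at which a fragment of this kind could start, 48.2% of the preceding bases are pyrimidines. G was the rarest preceding base, with 14.3% of the reads against 29.5% of the positions. These are descriptions over reads, which a few abundant sequences dominate: 24 sequences with at least 100 reads hold 29.2% of the reads, and 5480 sequences were seen as a single read.

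The rate of mismatches inside the fragments peaked at 2 positions. Mismatches at all other positions together were more numerous, since 3562 reads had one inside. Leaving out the first and last base of each read, the mismatch share was 6.76% of 3859 covering reads at position 34 and 5.58% of 4926 at position 58, against at most 1.34% at any other position with at least 1000 covering reads. At position 34, 246 of 261 mismatched reads were of the kind A to G, led by Pro-AGG (99 reads) and Ile-AAT (45). The wobble adenosine of such anticodons is deaminated to inosine, which is read as G. At position 58, with tRNAs lacking a found anticodon included, 274 of 276 mismatched reads lay over an A, and 67.0% of the mismatches were of the kind A to T. The A there carries m1A in many tRNAs and is a base at which reverse transcriptase misreads. Pooled over libraries, the shares in WT and NS-KO were 6.96% and 6.54% at position 34 and 5.71% and 5.47% at position 58. At positions 48 to 50 they lay between 0.352% and 0.656%. The last base of the read was mismatched in 24.7% of the fragment reads and in 38.02% of all tRNA reads, so the last base of a fragment is the least certain.

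**Figure D3:**
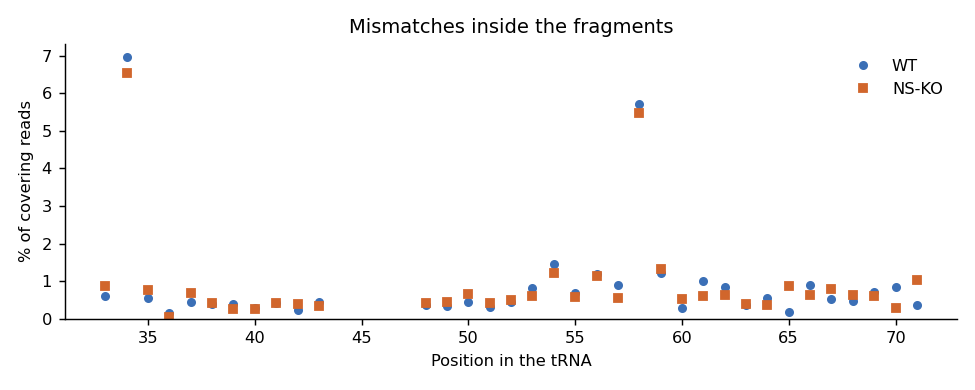
Percent of covering fragment reads with a mismatch at each position of the tRNA, first and last base of each read left out, for WT and NS-KO (6 libraries pooled each; positions 44 to 47 have no common numbering and are not shown). Positions 34 and 58 reach 5.47% to 6.96% in both genotypes, and no other position passes 1.5%.

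The first comparison asked whether these fragments make up a different share of the tRNA reads without NSun2. They made up 1.09% and 1.29% in WT D0, 3.91% and 1.77% in WT D3 and 1.66% and 1.02% in WT D27. The NS-KO D0 libraries held 2.91% and 2.77%, the NS-KO D3 libraries 1.79% and 1.69%, and the NS-KO D27 libraries 2.73% and 4.24%. NS-KO exceeded WT on D0 and D27, with overlap on D3. Averaged over days the share was 0.896 percentage points higher in NS-KO (1.79% ± 1.08 for WT against 2.69% ± 0.925 for NS-KO, SD, n = 6 each), with p = 0.213 (two-sided exact permutation, genotype exchanged only inside each day). Without WT D3 replicate 1 the difference was 1.25 points (exact permutation p = 0.037). The denominator moved it too. Among reads outside tRF-5c, which took 60.6% ± 13.0 of WT and 19.3% ± 6.85 of NS-KO reads (SD, n = 6), the share was 0.983 points lower in NS-KO (exact permutation p = 0.185). Among reads of mature nuclear tRNAs it was 3.42 points higher (exact permutation p = 0.0278).

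Set against the internal fragments that start before the anticodon, which need no common denominator, the fragments were fewer in NS-KO. The ratio of reads was 0.374 and 0.368 in WT D0, 0.444 and 0.391 in WT D3 and 0.342 and 0.354 in WT D27. NS-KO gave 0.320 and 0.337 for D0, 0.273 and 0.313 for D3, and 0.236 and 0.269 for D27. On each day both NS-KO libraries lay below both WT libraries. The log2 ratio was 0.385 lower in NS-KO (-1.41 ± 0.132 for WT against -1.79 ± 0.194 for NS-KO, SD, n = 6 each), with exact permutation p = 0.00926, the smallest this design allows. The earlier-starting fragments themselves took 4.59% ± 2.23 of all tRNA reads for WT against 9.44% ± 3.77 for NS-KO (SD, n = 6), so both kinds of internal fragment took a larger mean share in NS-KO, the earlier-starting kind more so. Without the Met fragments the log2 difference fell to -0.165 (exact permutation p = 0.0463), a setting chosen after seeing the data, and the groups then overlapped at D0 and were apart at D3 and D27.

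The share of fragment reads that end at 54 was looked at after its values were known and has no test. It was 49.8% and 43.5% in WT D0, 61.0% and 54.8% in WT D3 and 51.6% and 38.01% in WT D27. NS-KO gave 35.4% and 39.2% for D0, 36.3% and 53.5% for D3, and 38.9% and 26.8% for D27. NS-KO lay below WT for D0 and D3, with overlap on D27. Outside Met the means were 33.53% ± 5.16 for WT against 28.3% ± 7.72 for NS-KO (SD, n = 6).

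**Figure D4:**
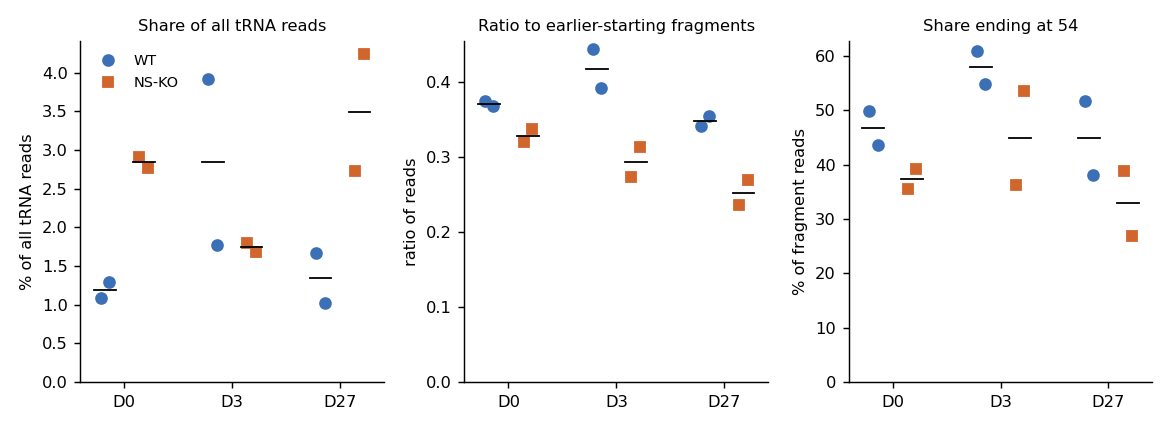
Values of each library by day for WT (circles) and NS-KO (squares), with the mean of each group as a line: the fragments as percent of all tRNA reads, their reads per read of internal fragments starting before the anticodon, and the percent of fragment reads ending at 54. The ratio is lower in NS-KO at each day, while the share of all tRNA reads is higher in NS-KO at D0 and D27 only.

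To ask which fragments differed, reads were summed by amino acid, start region and end region. Of 160 such sums of these fragments, 53 had at least 10 reads in at least 2 libraries and were tested with the rest of the table, 282 sums in all. Over days, limma called 3 of the 53 higher and 3 lower in NS-KO at an adjusted p below 0.05. Of the 53, 46 passed the filter through libraries of both genotypes, 3 through WT only and 4 through NS-KO only. Over the whole table, 23.8% of sums were called higher and 9.22% lower. The median log2 fold change was -0.09 over the 53 and 0.23 over all 282 sums. In plain CPM, 47 of the 53 had a higher mean in NS-KO, so directions here are relative to the scaling described next.

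The lower sums came from Met and, with few reads, from Val. Met fragments from the anticodon loop to the T arm had 2688 and 2700 CPM (reads scaled to the total tRNA reads of the library) in WT D0, 13620 and 6050 in WT D3 and 3761 and 1836 in WT D27. NS-KO gave 4773 and 4964 CPM for D0, 3003 and 3605 for D3, and 6387 and 5042 for D27. In CPM, NS-KO was above WT on D0 and D27 and below it on D3. Library size was then scaled by TMM factors, which ran from 0.509 to 1.85. They were above 1 only in the shallowest libraries, WT D3 replicate 1 and all NS-KO D0 and D27 libraries. What the factors correct for was not tested, and depth and composition cannot be told apart here. On that scale the log2 CPM was 12.37 and 11.86 in WT D0 against 11.72 and 11.42 in NS-KO D0, 13.23 and 13.01 against 11.87 and 11.88 at D3, and 12.19 and 11.82 against 11.76 and 11.56 at D27, with NS-KO lower on every day. The log2 fold change over days was -0.71 ± 0.17 (SE), with limma's adjusted p = 0.0064, and it turned to 0.17 (adjusted p = 0.627) with library size only. Met fragments from the 3′ anticodon stem to the T arm gave -0.77 ± 0.20 (limma adjusted p = 0.00967), and 0.10 with library size only. Without D3 the larger Met sum gave -0.54 (limma adjusted p = 0.0625).

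As a share of the fragment reads, which no scaling changes, Met took 32.1% and 26.2% in WT D0, 43.9% and 41.8% in WT D3 and 30.7% and 24.7% in WT D27. The NS-KO D0 libraries gave 20.9% and 22.2%, the NS-KO D3 libraries 23.0% and 29.95%, and the NS-KO D27 libraries 29.04% and 16.1%. Met was lower without NSun2 on D0 and D3, with overlap on D27. These shares were looked at after their values were known and have no test.

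The third sum called lower, Val fragments from the anticodon loop to the acceptor stem, had 69 reads in all and passed the filter on low values through WT libraries only. Its values are therefore given as a description, with no support drawn from its call. They had 30.04 and 37.2 CPM in WT D0, 12.3 and 93.1 in WT D3 and 19.2 and 94.3 in WT D27. In NS-KO they had no read in both D0 libraries and in D27 replicate 2, which at these depths allows up to 3 reads, and 13.6, 7.85 and 63.9 CPM in D3 replicate 1, D3 replicate 2 and D27 replicate 1. WT D3 replicate 2 and WT D27 replicate 2 held the highest values, and without either of them the sum no longer passed the filter. Among WT libraries the same ones led Asp fragments from the anticodon loop to the acceptor stem. They had 491 and 943 CPM against 36.8 to 154 in the other WT libraries. For selenocysteine fragments from the anticodon loop to the variable loop they had 450 and 370 CPM against 49.1 to 68.1. In NS-KO the Asp sum had 134 to 469 CPM and the selenocysteine sum 42.6 to 435. Both of those sums missed the threshold (limma adjusted p = 0.62 and 0.578).

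The 3 higher sums all started in the T arm and ended in the acceptor stem. Arg fragments of this kind had 21.8 to 68.1 CPM in the 6 WT libraries. NS-KO gave 325 and 170 CPM for D0, 348 and 31.4 for D3, and 405 and 1008 for D27. Trp fragments had 36.3 to 68.1 CPM in WT and 15.7 to 991 in NS-KO, and Pro fragments 14.5 to 80.5 in WT and 47.1 to 504 in NS-KO. For each of the 3, NS-KO D3 replicate 2 lay within or below the WT range and the other 5 NS-KO libraries above it. The log2 fold changes were 1.43 ± 0.49 for Arg, 1.40 ± 0.49 for Trp and 1.28 ± 0.42 for Pro (SE), with limma adjusted p = 0.0377, 0.0388 and 0.0312. Each kept its direction but lost its call in 11 of the 12 fits that left out 1 library (limma adjusted p up to 0.172, 0.149 and 0.159). Without NS-KO D3 replicate 2 the values were 1.96, 1.99 and 1.71. With perfect matches only, none of the 3 was called. Of the 9 sums tested that start in the T arm, 8 had a log2 fold change above 0, and the median of the 9 was 1.02. Phe is among the 8 (1.07, 40 reads) and reached 10 reads in NS-KO libraries only. No support is drawn from this count.

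**Figure D5:**
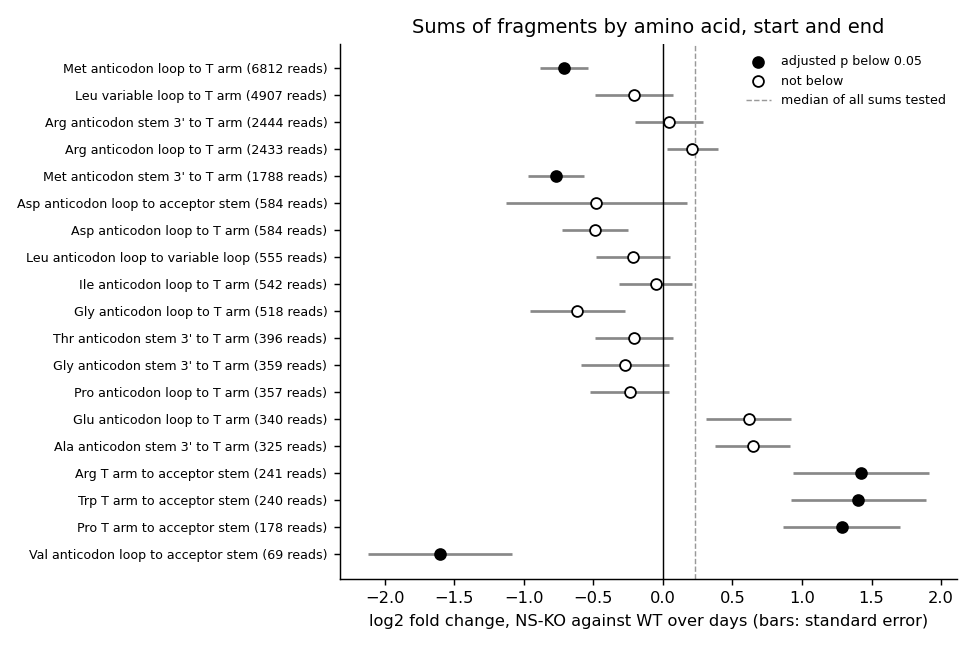
log2 fold change of NS-KO against WT over days (points, with the standard error as bars) for the 15 sums with most reads and the called sums. The called sums (filled) are 2 Met sums and 1 Val sum below 0 and 3 sums from the T arm above 0 (the Val sum passed the filter through WT only), and the dashed line is the median of all 282 sums (0.23).

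The other large sums did not pass the test. Leu fragments from the variable loop to the T arm, 4907 reads, had 1491 to 4772 CPM in WT and 2406 to 8833 in NS-KO, a log2 fold change of -0.21 ± 0.28 (SE, limma adjusted p = 0.611). With library size only it was 0.67 (limma adjusted p = 0.0499), and without NS-KO D27 replicate 2 it was -0.55 (limma adjusted p = 0.0366). Arg fragments from the 3′ anticodon stem and from the anticodon loop to the T arm gave 0.04 ± 0.24 and 0.21 ± 0.18 (limma adjusted p = 0.909 and 0.418). Among the 27 sums outside Met that end in the T arm, none was called with this grouping and scaling, 12 log2 fold changes were above 0 and 15 below, and the range was -0.62 to 0.65. With library size only, some were called higher, among them Arg fragments from the anticodon loop (1.08, limma adjusted p = 0.00201) and Ala fragments from the 3′ anticodon stem (1.46, limma adjusted p = 0.000537). Perfect matches hold 59.45% of the fragment reads. With these only, Asp fragments from the anticodon loop were called lower (-0.67, limma adjusted p = 0.0358). Over all sums of these fragments, that setting gave 0 higher and 4 lower.

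At single days fewer sums passed. At D3 Met fragments from the anticodon loop to the T arm were the only sum of the 53 called, with a log2 fold change of -1.24 ± 0.30 (SE, limma adjusted p = 0.00674). At that day 20.2% of all sums were called higher and 4.26% lower, and more of the 53 were called in some fits that left out 1 library. Without WT D3 replicate 1 the value was -1.50 (limma adjusted p = 0.0276), and with library size only it was -1.46 (limma adjusted p = 0.0355). At D0 and D27 limma called 0 of the 53 (4 and 10 had an unadjusted p below 0.05), against 1.42% of all sums called higher and 2.13% lower at D0 and 0.709% and 2.13% at D27. With library size only, 15 were called at D0 and 21 at D27, and leaving out 1 library gave up to 5 at D27 (without NS-KO D3 replicate 2). The Met values there were -0.54 ± 0.30 and -0.34 ± 0.30 (log2, SE, limma adjusted p = 0.403 and 0.569).

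Injury was compared within each genotype. In WT, limma called 0 of the 53 sums at D3 against D0 (4 with an unadjusted p below 0.05) and 0 at D27 against D0 (2 unadjusted), and 0% of all sums were called in both. In NS-KO it called 0 at D3 (6 unadjusted), where 13.8% of all sums were called higher and 1.06% lower, and 0 at D27 (4 unadjusted), where 0% were called. The change at D3 in NS-KO minus that in WT was called for 0 of the 53 (2 unadjusted) and for 8.16% of all sums in the higher direction. The same difference at D27 was called for 0 of the 53 (5 unadjusted) and for 0% of all sums.

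Single fragments gave the same leading tRNA. They are parts of the sums above, from the same libraries and with the same scaling, so this adds no separate support. Of 8144 sequences, 1671 had a CPM of 20 or more somewhere and were tested, among 22065 in the whole table. Of the 1671, 1318 (78.9%) reached it in NS-KO libraries only, 93 in WT only and 260 in both. In the shallowest libraries 1 read is worth 21.3 CPM, and 958 sequences (57.3%) passed on 1 read in 1 NS-KO library. limma called 1 higher and 11 lower in NS-KO over days (81 and 56 had an unadjusted p below 0.05), against 3.81% and 2.23% of all fragments. The sequence called higher passed through NS-KO only, and 6 of the 11 called lower through WT only, so these 7 calls are set by the filter and support nothing. The other 5 were 4 Met fragments and Asp-GTC 32 to 48 (46 reads, log2 fold change -0.88 ± 0.23, SE, limma adjusted p = 0.0494). Among the 12 sequences with most reads, 4 were called, all from tRNA-Met-CAT-2-1 and all ending at 54. The fragment 34 to 54 had 1947 reads, with 796 and 805 CPM in WT D0, 3742 and 1898 in WT D3 and 1213 and 504 in WT D27. NS-KO gave 1200 and 1300 CPM for D0, 826 and 1107 for D3, and 1277 and 1287 for D27. Its log2 fold change on the TMM scale was -0.91 ± 0.23 (SE, limma adjusted p = 0.0431), and -0.04 with library size only (limma adjusted p = 0.916). The fragments starting at 36, 41 and 35 gave -1.11 ± 0.29, -1.38 ± 0.33 and -1.50 ± 0.36 (limma adjusted p = 0.0495, 0.0324 and 0.0363). The fragment 34 to 54 of tRNA-Met-CAT-1-1, which differs from the first by 1 base, gave -0.04 ± 0.30 (limma adjusted p = 0.938), and the difference between the pair was not tested. Arg-CCT 35 to 54 gave 0.02 ± 0.30 and Leu-CAA 51 to 64 gave -0.53 ± 0.42 (limma adjusted p = 0.964 and 0.475). The most read fragments that start in the T arm had 16 reads (tRNA-iMet-CAT-1-1, 54 to 71) and 15 reads (tRNA-Gln-CTG-1-1, 56 to 69) and were not called. The 1 fragment called higher was Gln-TTG 32 to 47, with 7 reads. Leaving out 1 library gave between 3 calls (without WT D0 replicate 1) and 418 (without NS-KO D27 replicate 2), and the calls of the Met fragments starting at 34, 36, 41 and 35 were lost in 5, 8, 5 and 7 of the 12 fits.

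The tRNAs that DNMT2 methylates, and Leu-CAA, were looked at as fixed lists. Asp-GTC gave 1702 reads from 519 sequences, with 473 to 1423 CPM in WT and 793 to 1913 in NS-KO. Gly-GCC gave 397 reads (135 to 491 CPM in WT, 128 to 470 in NS-KO), Val-AAC 56 reads (11.3 to 110 and 0 to 63.9) and Leu-CAA 3256 reads (994 to 3312 and 1320 to 5355). The ranges of the genotypes overlapped for each of the 4. Of the 12 tested sums of Asp, Gly and Val, only the Val sum described above was called with the main settings, and of the 3 Leu sums none was. These sums go by amino acid and hold other isodecoders too. In the Val sum, 60 of the 69 reads were Val-TAC, not Val-AAC. When sums were made by isodecoder, 7 of 67 were called, 4 higher and 3 lower. Among the higher were Trp-CCA and Pro-AGG from the T arm to the acceptor stem (1.40 and 1.28). The other higher sums were Arg-TCT and Arg-CCG from the anticodon loop to the T arm. They gave 0.99 ± 0.27 and 0.76 ± 0.27 (SE, limma adjusted p = 0.0127 and 0.0489). Both reached 10 reads in NS-KO libraries only, so these calls are set by the filter and support nothing. The Arg sum from the T arm and the Val sum were not called when split. The lower were both Met sums and Gly-GCC. Gly-GCC from the anticodon loop to the T arm was called lower, with a log2 fold change of -1.27 ± 0.33 (SE, limma adjusted p = 0.00967). In this grouping 21.5% of all sums were called higher and 10.4% lower. The Gly-GCC fragments had 197 reads, with 61.7 to 356 CPM in WT and 21.3 to 226 in NS-KO. In CPM the genotypes were apart on D0 and overlapped on D3 and D27. No fit of this sum with other scalings is given here.

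Within the fragment reads, 10 measures of start, end, length and preceding base were compared between genotypes. None differed after Benjamini-Hochberg adjustment over the 10 (exact permutation tests within days), and 1 had an unadjusted p below 0.05. That was the share that starts in the T arm or later, with 3.96% and 4.60% in WT D0, 1.41% and 2.48% in WT D3 and 2.84% and 3.19% in WT D27. NS-KO gave 6.46% and 3.77% for D0, 10.6% and 2.79% for D3, and 10.2% and 10.9% for D27. The groups were apart at D3 and D27 and overlapped at D0, and the mean difference was 4.37 points (exact permutation p = 0.037, adjusted p = 0.309). The share that starts in the anticodon loop was 54.1% ± 6.05 for WT against 46.9% ± 6.49 for NS-KO (SD, n = 6, exact permutation p = 0.0926, adjusted p = 0.309). The mean length was 19.2 nt ± 0.801 for WT against 18.8 nt ± 0.645 for NS-KO (SD, n = 6, exact permutation p = 0.38, adjusted p = 0.714). The share ending in the T arm was 84.8% ± 6.85 and 82.3% ± 3.34 (SD, n = 6, exact permutation p = 0.5, adjusted p = 0.714). WT D27 replicate 2 held the lowest such share in WT, 72.0%, and the highest share ending in the acceptor stem, 20.3%.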

How the data were processed

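The authors checked reads with FastQC, trimmed adapters and kept 14 to 40 nt with cutadapt, and aligned with Bowtie, allowing 1 mismatch, to mature and then to precursor tRNAs. Versions and the genome build are not given in the sources used here. The deposited table lists, for every tRNA, the aligned sequences, their subtype and whole-number read counts of 12 libraries. Because of its text lines its values were recorded as unit "other", and edgeR, which the study's methods name, was not run. Each distinct sequence was counted once, and all 12 deposited library files held the same reads.

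Starts are numbered from the anticodon at 34, ends back from CCA. limma 3.58.1 (trend, Benjamini-Hochberg over the whole table) was run on log2 CPM with a prior count of 2 and TMM factors from fragments with a CPM of at least 20 in 1 library. The fits were tested on simulated data. Named items are the 12 most read sequences and 2 per start region, the 15 most read sums, up to 8 called sums per direction, and fixed tRNA lists. Members, lists and tests were chosen with earlier results of these data known. Libraries were prepared as independent biological replicates, and their numbers share only a number: deviations of same-numbered libraries correlated at 0.0407, -0.166 and -0.0246. Counting limits cover counting error only. Alternatives included other scalings, filters, groupings, a replicate block and each library left out.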

Additional observations from a re-analysis of the deposited data

Results flagged for a closer look

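In 7 of 56 comparisons of a day with D0 (28 measures, D3 and D27), both WT libraries moved one way and both NS-KO libraries the other. With 36 arrangements an exact permutation test cannot give a p below 0.0556, so none could pass. The share of all tRNA reads rose by 1.65 points in WT at D3 and fell by 1.10 in NS-KO, a difference of -2.75 points (exact permutation p = 0.111). Outside tRF-5c that difference was -2.59 points (exact permutation p = 0.333), and for the log2 ratio to earlier-starting internal fragments at D3 it was -0.33 (exact permutation p = 0.389). At D27 the share starting in the 3′ anticodon stem differed by -7.91 points (exact permutation p = 0.167) and the share starting in the T arm or later by 6.71 points (exact permutation p = 0.222). Pro fragments from the anticodon loop to the T arm differed by -2.29 at D3 and -2.37 at D27 on the log2 scale (exact permutation p = 0.0556 each, the smallest possible), and limma's adjusted p for these differences was 0.0526 and 0.385.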

How the results depend on the processing

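The lower ratio to earlier-starting fragments kept its direction and call in all 6 alternatives and all 12 fits without 1 library (-0.431 to -0.165, and -0.417 to -0.352), the replicate block included (p = 0.0312, exact permutation). The share of tRNA reads passed the threshold with reads of mature nuclear tRNAs (3.42 points), and without 1 library it ran from 0.539 to 1.25. The count of composition measures stayed 0. Member sums called over days numbered 6, and 22 with library size only, where 21 were higher and the median of all sums rose from 0.227 to 1.04. Without 1 library they numbered 2 to 9, highest without NS-KO D3 replicate 2. With library size only, the log2 fold changes of Met sums turned to 0.165 and 0.0977 and that of Leu fragments from the variable loop to the T arm to 0.666 (adjusted p = 0.0499 by limma). Sums called at single days and for injury numbered 1, 49 with library size only, and 1 to 10 without 1 library (highest without NS-KO D3 replicate 2), an alternative chosen after seeing the data, as were TMM factors from the sums (8 calls over days) and leaving out Met. Single fragments called numbered 12, 7 with library size only, 95 with voom weights, 29 with a CPM of 20 in 2 libraries, 3 without D3 and 3 to 418 without 1 library. The replicate block gave 6 sums and 9 fragments. The cause was not tested. Depth limits rare fragments: 1 read is worth 3.63 to 21.3 CPM.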
